A study of Oryza sativa with 18 samples.

Results

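On chromosomes 1 to 12 of rice, 343 of 29831 open chromatin regions were wider than 1000 bp, and these wide regions are described here. They were chosen by their width alone, which is the end minus the start plus 1 in the submitters' region list. That list holds 29978 regions in all, of which those outside the 12 chromosomes are set apart. The regions come from ATAC-seq, in which a transposase cuts into DNA that is free of nucleosomes, on nuclei from the second leaf of 14-day-old plants of the variety Azucena grown in liquid culture. The 18 libraries form 9 groups of 2. Heat-treated plants were taken from 30 °C to 40 °C and sampled at 0.5 h, 2 h and 4 h. Heat-recovery plants spent 2 h at 40 °C and were sampled after 2 h back at 30 °C, which the labels list as the 4 h time. For dehydration, roots were exposed to air and leaves taken at 2 h. Dehydration-recovery plants had 1.5 h in air and were sampled 2 h after going back into liquid, again listed as 4 h. Control plants stayed in liquid at 30 °C and were sampled at 0.5 h, 2 h and 4 h. The region list does not separate the libraries. Treatments were therefore not compared with controls, the depth of each library is unknown, and every value below describes a single pooled list.

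DNA in a plant nucleus is wound around nucleosomes, and it becomes accessible mainly where transcription factors and the transcription machinery push nucleosomes aside, chiefly near gene starts and at enhancers. Most such openings are short, about the length freed by the loss of a nucleosome or a few. A region of more than 1000 bp is longer than several nucleosomes with their linkers. It may be, among other possibilities, a long nucleosome-free stretch or openings so close that a peak finder draws them as 1 region. What holds for a given wide region was not tested, because the list holds no read profile and does not separate the libraries.

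Each region carries a whole number, called the peak value here, which the list names max and does not define. It ran from 10 to 18 on the chromosomes, and its highest value equals the number of libraries. Whether it counts libraries is not stated in the sources used here. Of the 343 wide regions, 328 (95.6%) had the value 18, 14 had 17 and 1 had 16. Put the other way, wide regions were 4.94% of the 6645 regions at 18, 0.354% of the 3957 at 17 and 0.0258% of the 3875 at 16, and none of the 15354 regions at lower values was wide. These shares are a description, since width chose the members, and why width and peak value go together was not tested. For the comparisons below, the wide regions were set against the 6317 other regions of peak value 18.

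The wide regions were a thin upper tail of the list rather than a class with a gap below it. Their median width was 1208 bp, the quartiles were 1092 and 1421 bp, and 80.2% were under 1500 bp. There were 139 regions from 901 to 1000 bp and 94 from 1001 to 1100 bp. The narrowest 5 members measured 1001, 1001, 1002, 1005 and 1006 bp, and the 5 regions just outside the rule measured 1000, 1000, 1000, 999 and 999 bp. All 10 of these had a peak value of 18. Only 17 members exceeded 2000 bp, and 3 exceeded 4000 bp. Together the wide regions covered 458.5 kb, which was 5.85% of the open base pairs on the chromosomes from 1.15% of the regions.

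Wide regions occurred on every chromosome, in unequal shares. They were 1.13% ± 0.208 of a chromosome's regions (SD, n = 12 chromosomes). Chromosome 4 had the largest share, with 34 wide of 2359 regions (1.44%), and chromosome 1 followed with 60 of 4230 (1.42%). Chromosome 10 had the smallest, with 12 of 1552 (0.773%). Among regions of peak value 18 alone, the share that was wide was 7.27% on chromosome 4 and 3.05% on chromosome 10. The median width of the members varied less, at 1231 bp ± 79.5 (SD, n = 12 chromosomes). Chromosomes are parts of 1 list and not biological replicates, so these SDs, and the tests below that use chromosomes as units, show how even a value is along the genome and nothing about variation between plants.

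Wide regions, nearly all of peak value 18, had near neighbours far more often than the other regions of that value. Of the wide regions, 234 (68.2%) had another open region less than 1000 bp away, against 46.0% of the other regions at 18. Averaged over chromosomes, the share was 69.5% ± 10.1 for wide regions and 45.7% ± 2.73 for the others (SD, n = 12 chromosomes). It was higher for wide regions on 12 of 12 chromosomes, by a mean of 23.7 percentage points ± 9.74 (exact permutation of signs across chromosomes, two-sided, with p = 0.000488 being the lowest value possible with 12 chromosomes, and adjusted p = 0.0013 over the 8 quantities compared). The difference was largest on chromosome 9, with 83.3% of wide and 45.9% of other regions, and smallest on chromosome 11, with 50% and 45.0%. With the limit at 1500 bp, which only 68 members exceed, the mean difference was 37.8 percentage points ± 14.2 (exact sign-flip, adjusted p = 0.002). Against regions at 18 of 500 to 1000 bp, the mean difference was 19.4 percentage points (exact sign-flip, adjusted p = 0.0026). That set is closer in width but not matched, with a median of 632 bp against 1208 bp.

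The distance to the nearest neighbour was correspondingly short. Its median was 393 bp for the wide regions, with quartiles of 134 and 1680 bp, and 1201 bp for the other regions at 18, with quartiles of 296 and 5089 bp. The log2 ratio of the chromosome medians, wide over other, was -1.71 ± 0.75 (SD, n = 12 chromosomes) and was below 0 on 12 of 12 (exact sign-flip, adjusted p = 0.0013). The excess lay under 500 bp and was largest at the shortest distances. Gaps of 72 to under 150 bp, where 72 bp is the smallest gap in the list, separated 98 wide regions (28.6%) from their nearest neighbour, against 771 (12.2%) of the others. Gaps of 150 to under 300 bp did so for 14.9% of wide and 13.04% of other regions, and gaps of 300 to under 500 bp for 12.0% and 7.76%. Gaps of 500 to under 1000 bp did so for 44 wide regions (12.8%) and 823 others (13.03%), which is nearly the same share. At the far end, 15 wide regions (4.37%) and 764 others (12.1%) had no neighbour within 10 kb. A gap and a width are both set by where the list ends a region, so a wide region and a run of near regions cannot be fully told apart here. When regions less than 150 bp apart were joined first, the difference in near neighbours was 20.7 percentage points. Joining made 530 regions wide, some of them because they had close neighbours, so this value does not separate gap from width.

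**Figure D1:**
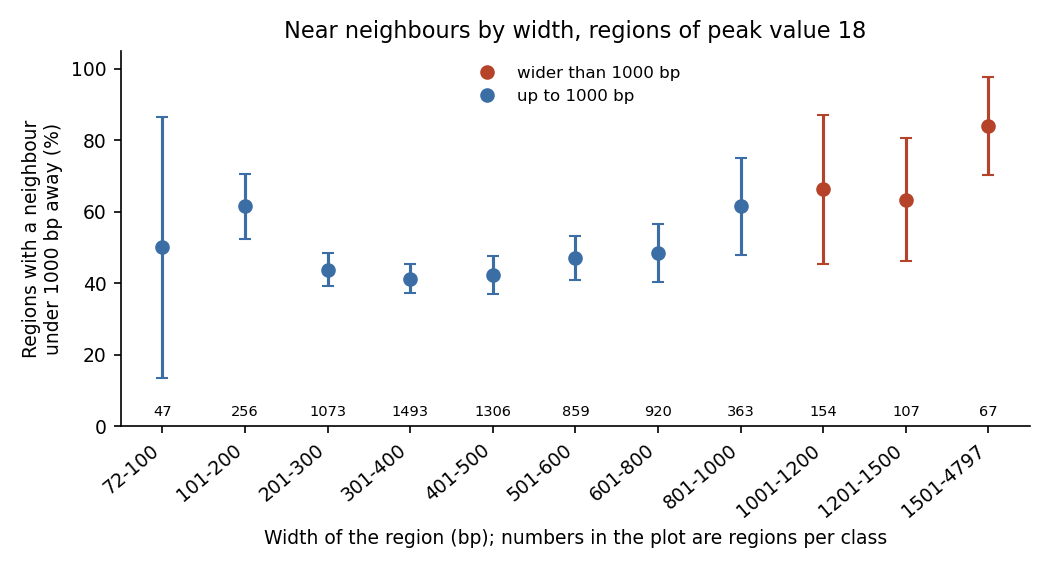
Share of regions of peak value 18 with another region less than 1000 bp away (%, vertical axis) by width class (bp, horizontal axis). Points are means and bars SDs over 12 chromosomes, red for regions wider than 1000 bp and blue for the rest, and the number of regions in each class stands above the axis. The share is lowest in the class over 300 and up to 400 bp and highest in the class above 1500 bp, and the classes on either side of 1000 bp overlap.

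Near neighbours became more frequent with width well before the limit of 1000 bp. Among regions at 18, pooled over chromosomes, the share with a near neighbour was 41.7% over 300 and up to 400 bp, 49.2% over 600 and up to 800 bp and 59.2% over 800 and up to 1000 bp. It was 63.0% over 1000 and up to 1200 bp, 63.6% over 1200 and up to 1500 bp and 83.6% in the 67 regions above 1500 bp. The step across the limit is thus small against the spread of 13.6 and 20.8 percentage points between chromosomes in the classes next to it (SD, n = 12 each). Narrow regions over 100 and up to 200 bp wide at the same peak value also had a high share, 61.7%, so the relation to width is not in 1 direction over the whole range.

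Neighbours flanked wide regions on both sides alike. A neighbour within 1000 bp lay on the lower-coordinate side of 156 wide regions (45.5%) and on the higher-coordinate side of 164 (47.8%), against 27.7% and 27.6% of the other regions at 18. Both sides were occupied in 86 wide regions (25.1%) and in 588 others (9.31%). Among the wide regions, the 3 with the smallest gaps summed over both sides were 1654572 to 1656159 on chromosome 5, with gaps of 78 and 72 bp, 21172402 to 21173662 on chromosome 8, with 72 and 85 bp, and 7746939 to 7748057 on chromosome 5, with 89 and 73 bp. The neighbour below the region on chromosome 8 was itself wide, at 1992 bp. The most isolated member lay at 11154030 to 11155418 on chromosome 6 and was 1389 bp wide, with 48939 bp free below it and 48900 bp above. It was followed by 15353588 to 15354688 on chromosome 8, whose nearest neighbour was 36624 bp away, and by 36231832 to 36232872 on chromosome 1, at 28857 bp. All 3 had a peak value of 18, so a wide opening with the highest value also occurred alone.

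**Figure D2:**
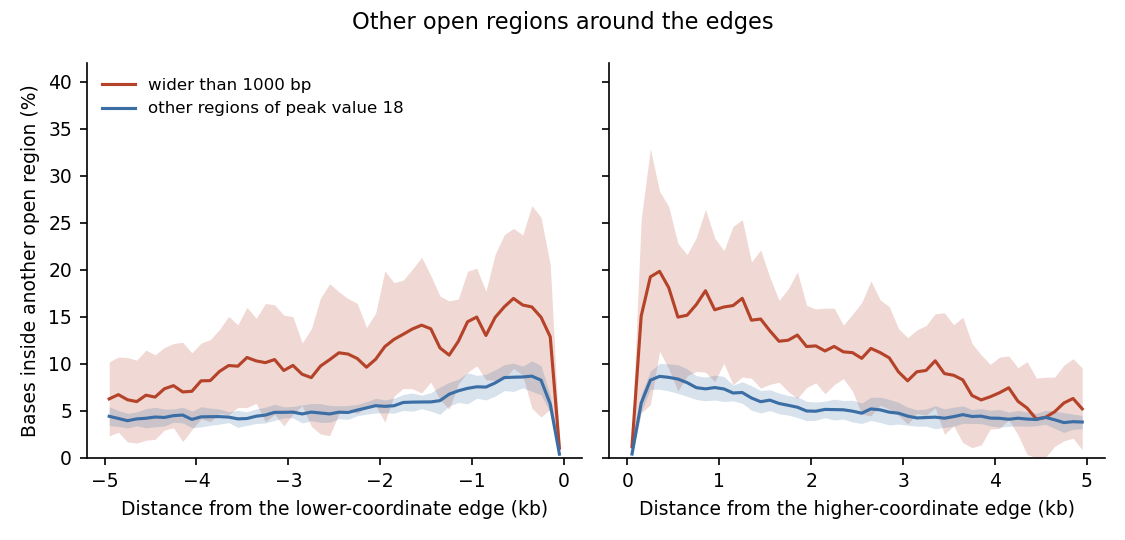
Share of bases that lie inside another open region (%, vertical axis) at distances up to 5 kb from the lower-coordinate edge (left) and the higher-coordinate edge (right), in steps of 100 bp. Lines are means and bands SDs over 12 chromosomes, red for the 343 wide regions and blue for the 6317 other regions of peak value 18. Red lies above blue throughout most of both panels. Apart from the first 100 bp, the lines lie closest between 4000 and 5000 bp.

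The surplus of open chromatin around wide regions reached over several kb. From 100 to 1000 bp outside the edge, other regions covered 16.9% of the bases on the higher-coordinate side of wide regions and 15.1% on the lower, against 7.77% and 7.94% beside the other regions at 18. From 1000 to 2000 bp the shares were 14.2% and 12.9% beside wide regions, against 6.14% and 6.21%. From 4000 to 5000 bp they were 5.64% and 6.74%, against 4.05% and 4.27%. The mean share beside wide regions thus fell with distance and was closest to that of the others in this last step, though still above it. Within that step, the shares on the higher-coordinate side nearly met from 4400 to 4500 bp. They were 4.13% ± 4.35 beside wide regions and 4.08% ± 0.663 beside the others (SD, n = 12 chromosomes). The shares at these distances were not tested.

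Over a larger window the surplus was small but still there. Wide regions had a mean of 13.2 ± 2.03 other regions within 50 kb of their edges, and the other regions at 18 had 11.2 ± 1.36 (SD, n = 12 chromosomes). The difference was 1.99 ± 1.07 regions, positive on 11 of 12 chromosomes (exact sign-flip, adjusted p = 0.0016). Chromosome 9 was the exception, with 10.2 around wide and 10.4 around other regions, although it had the largest difference in near neighbours. Leaving out the 5 kb next to the region, an alternative chosen after the values were seen, reduced the difference to 0.791 ± 1.03 regions. Its p was 0.027 before adjustment and 0.044 after it (exact sign-flip). The adjustment ran over all 8 quantities, some of which have width as their denominator. The value after adjustment is under 0.05 only with those counted, so no pass is read from it. With the limit at 1500 bp the difference in the full window was 4.29 ± 5.17 regions (SD, n = 12 chromosomes, exact sign-flip, adjusted p = 0.023). This SD exceeds the mean, and only 68 members lie above 1500 bp, so the value is coarse.

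**Figure D3:**
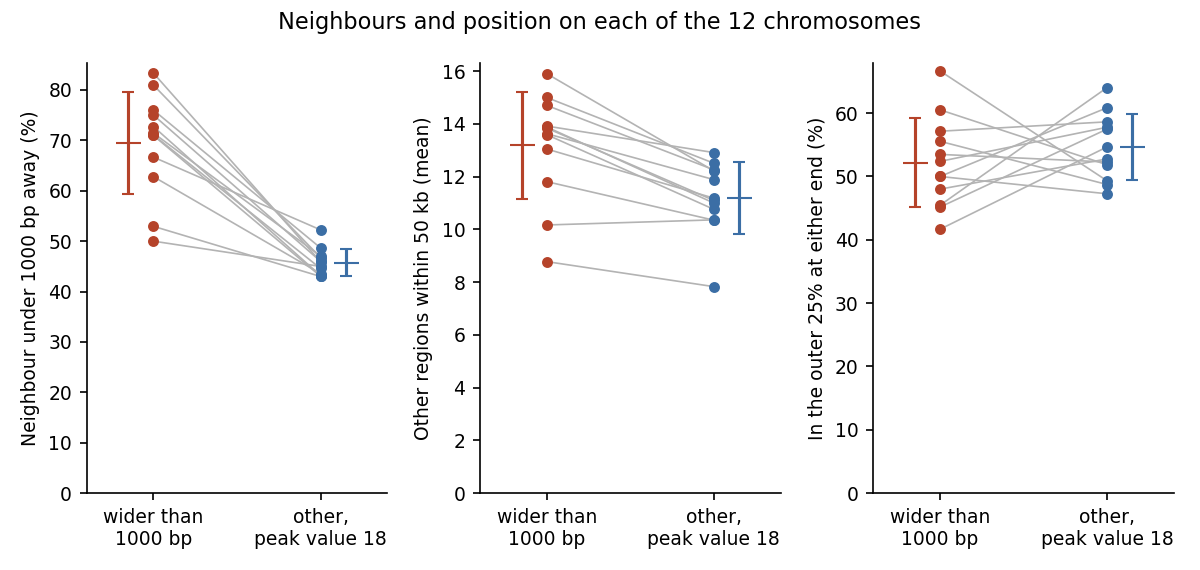
Share with a neighbour less than 1000 bp away (%, left), mean number of other regions within 50 kb (middle) and share in the outer 25% of the chromosome at either end (%, right). Each point is 1 of 12 chromosomes, red for wide and blue for other regions of peak value 18, with lines joining the same chromosome and bars for mean ± SD. All 12 lines fall to the right in the left panel and 11 in the middle one, while those on the right run both ways.

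The neighbours themselves did not differ detectably in median width or mean peak value, although wide ones were more frequent beside wide regions. The nearest neighbour of a wide region had a median width of 219 bp and that of another region at 18 of 202 bp, pooled over chromosomes. The mean difference of the chromosome medians was 11.2 bp ± 49.4 (SD, n = 12), above 0 on 7 of 12 chromosomes, and did not pass (exact sign-flip, adjusted p = 0.518). It did pass with the limit at 800 bp, at 18.7 bp (exact sign-flip, adjusted p = 0.044), and when regions less than 150 bp apart were joined first, at 42.9 bp (adjusted p = 0.0065). Joining also changes the neighbours' own widths and which regions are wide, so little is read from the last value. The upper quartile of neighbour width was 417.5 bp beside wide regions and 342 bp beside the others. The nearest neighbour was itself wide for 19 wide regions (5.54%) and 80 others (1.27%). These 2 contrasts were not tested. The peak value of the nearest neighbour averaged 15.4 ± 0.523 beside wide regions and 15.4 ± 0.168 beside the others (SD, n = 12), a difference of -0.017 ± 0.577 that did not pass (exact sign-flip, adjusted p = 0.933). The nearest neighbour had a peak value of 18 for 24.5% of wide regions and 25.9% of the others.

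A larger share of the wide regions than of the others stood in rows of several regions, although most such rows held no wide region. Regions less than 1000 bp from the next were taken as 1 group. Of the wide regions, 72 (21.0%) were in groups of 5 or more, against 358 (5.67%) of the other regions at 18. Of the 297 groups of 5 or more, 55 (18.5%) held a wide region. The group with a wide region and the most open base pairs lay on chromosome 1 from 25695623 to 25705649. It had 8 regions, 2 of them wide, which filled 74.9% of its 10027 bp. A group of 9 regions with 3 wide ones on chromosome 2, from 31644481 to 31651266, was open over 71.7% of its 6786 bp.

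Wide regions also lay near each other. Another wide region lay within 10 kb of 69 members (20.1%), while 330 (5.22%) of the other regions at 18 had a wide region that close. Over chromosomes the shares were 19.7% ± 9.93 and 5.07% ± 1.42 (SD, n = 12), and the wide regions had the higher share on 11 of 12. This difference was not tested. The 69 fell into 33 groups, and the other 274 members had no wide region within 10 kb. Only 3 groups held 3 wide regions, at 20533448 to 20546494 of chromosome 12 and at 23984821 to 23992470 and 31645545 to 31651266 of chromosome 2. The closest pair was on chromosome 8, where regions of 1992 and 1261 bp were 72 bp apart and together spanned 3325 bp, from 21170338 to 21173662. A pair on chromosome 9, of 1802 and 1250 bp, was 77 bp apart, from 8193488 to 8196616.

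The widest 20 members ranged down to 1956 bp and lay on 9 chromosomes, with 5 on chromosome 12 and 4 on chromosome 5. All 20 had a peak value of 18, and 18 of them had a neighbour less than 1000 bp away. The 3 that exceeded 4000 bp differed in their surroundings. The region of 4797 bp on chromosome 1, from 1737259 to 1742055, lay in the densest surroundings of the 20, with 44 other regions within 50 kb. The region of 4139 bp on chromosome 4, from 32883685 to 32887823, had no neighbour closer than 3495 bp. The region of 4138 bp, also on chromosome 1, from 25701512 to 25705649, had a neighbour 115 bp below it and nothing for 44718 bp above.

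On chromosome 5, regions of 2910 bp at 18105611 to 18108520 and of 2357 bp at 18115044 to 18117400 were 6523 bp apart. Both had 23 other regions within 50 kb. On chromosome 12, regions of 2885 bp from 20541409 to 20544293 and of 2056 bp from 20533448 to 20535503 were 5905 bp apart, and one of 1961 bp, from 20620376 to 20622336, followed in the same Mb. Of the widest 20 members, these 3 and 2 further ones were on chromosome 12, at 4989626 to 4991977 (2352 bp) and at 11262221 to 11264311 (2091 bp). The bin from 20000001 to 21000000 on chromosome 12 held 7 wide regions, more than any other bin of 1 Mb, among 59 regions of which 34 had a peak value of 18.

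The remaining 10 of the widest 20 were spread over 7 chromosomes. Chromosome 5 had a region of 2571 bp from 16420812 to 16423382, with a free stretch of 26985 bp below it, and one of 2143 bp from 24442168 to 24444310. Chromosome 9 had one of 2559 bp from 10845398 to 10847956, between neighbours 214 and 197 bp away. On chromosome 10 a region of 2367 bp from 20465692 to 20468058 lay 553 bp above another wide region. Chromosome 3 had 2, of 2338 bp from 31814044 to 31816381 and of 2328 bp from 21999525 to 22001852. The first of these had no neighbour closer than 9048 bp. Chromosome 6 had 2219 bp from 8695693 to 8697911, with neighbours 98 and 95 bp away, and 2208 bp from 30416284 to 30418491. The last 2 were the region of 1992 bp on chromosome 8 described above and one of 1956 bp on chromosome 1, at 10613679 to 10615634. Which genes these regions cover was not analysed here.

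**Figure D4:**
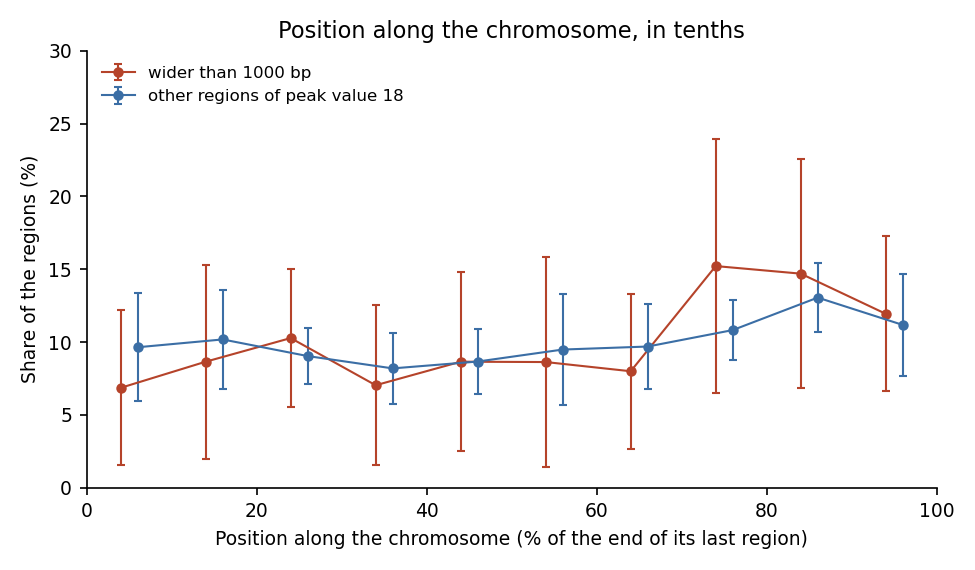
Share of the regions (%, vertical axis) in each 10% of the chromosome (horizontal axis, position as a percentage of the end of the last region). Points are means and bars SDs over 12 chromosomes, red for wide and blue for other regions of peak value 18; the bars overlap at every position.

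Along the chromosomes, the share in the outer 25%, taken over both ends together, did not differ detectably between wide regions and other regions of peak value 18. The outer 25% at either end held 52.2% ± 7.07 of the wide and 54.6% ± 5.18 of the other regions at 18 (SD, n = 12 chromosomes). The mean difference was -2.47 percentage points ± 10.4, below 0 on 7 of 12 chromosomes (exact sign-flip, adjusted p = 0.518). Chromosome 12 had the largest deficit at its ends, with 45.5% of wide and 64.0% of other regions, and chromosome 11 the largest surplus, with 66.7% and 49.3%. Against regions at 18 of 500 to 1000 bp, the mean difference was -6.51 percentage points ± 9.68 (exact sign-flip, p = 0.043, adjusted p = 0.058). The ends went opposite ways, which their sum hides. The lowest 25% of the length held 18.1% of the wide and 25.1% of the other regions at 18, and the highest 25% held 32.9% and 29.4%. Neither end was tested on its own. The stretch from 70 to 80% of the length held 14.9% of the wide and 10.6% of the other regions, and the first 10% held 6.12% and 10.1%. With 12 to 60 members on a chromosome, these shares are coarse.

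Long stretches held open regions but no wide one. Of the 378 bins of 1 Mb with any region, 181 had no wide region, 103 had 1 and 60 had 2. The longest stretch between successive wide regions was 9176 kb on chromosome 12, from 11322809 to 20498778. It held 301 open regions, of which 81 had a peak value of 18. It ended just below the cluster of wide regions on that chromosome. The next were 6571 kb on chromosome 11, from 8133054 to 14704234, with 306 regions of which 82 were at 18, and 5907 kb on chromosome 10, from 14556481 to 20463840, with 505 regions of which 104 were at 18. The median distance between successive wide regions was 574.8 kb (n = 331), and the stretches named are the longest of these. Over the 12 chromosomes, wide regions were only 1.15% of all regions and 4.94% of those at 18. Whether the stretches are longer than such low shares would give was not tested.

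The peak lay below the middle of most wide regions. Its distance in bp from the lower-coordinate edge was larger than in other regions, but width sets an upper bound on that distance. The list gives the position of the peak as maxpos, read here as bp counted from the lowest coordinate. Its median was 231 bp in wide regions, with quartiles of 130 and 400.5 bp. In regions at 18 of 500 to 1000 bp it was 167.5 bp, and in all other regions at 18 it was 125 bp. It was within the first 500 bp of 285 wide regions (83.1%), against 98.9% of the other regions at 18 and 96.9% of those of 500 to 1000 bp. It was within the first 100 bp of 61 wide regions (17.8%), against 38.3% and 25.3%. In the widest region it lay at 115 bp of 4797 bp, and in the 4139 and 4138 bp regions at 224 and 210 bp. The median over the widest 20 was 218 bp. One exception was the region of 2352 bp on chromosome 12, with its peak at 1778 bp.

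**Figure D5:**
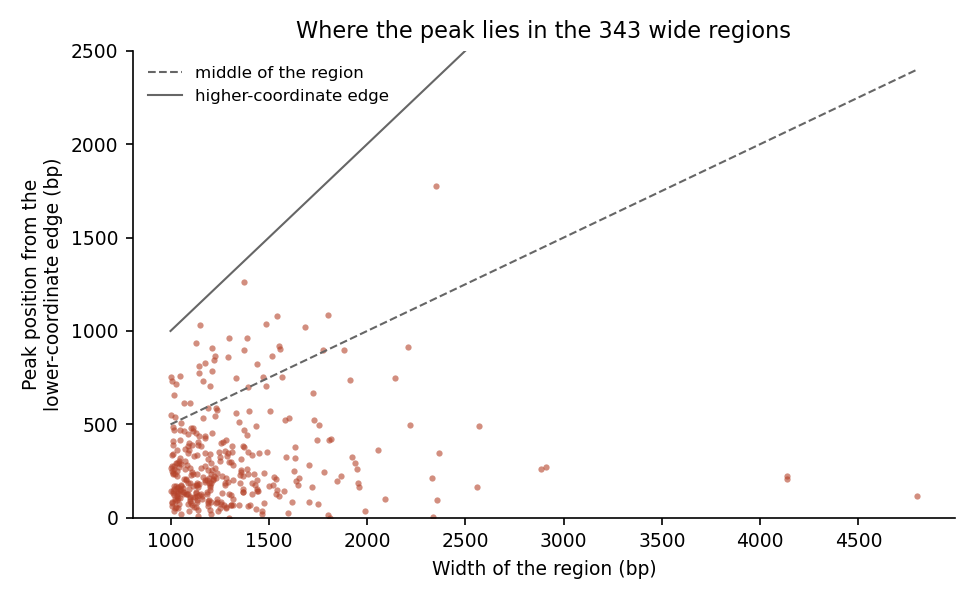
Position of the peak counted from the lower-coordinate edge (bp, vertical axis) against the width of the region (bp, horizontal axis) for each of the 343 wide regions. The dashed line marks the middle and the solid line the higher-coordinate edge; 305 points lie below the dashed line, and 285 lie within the first 500 bp.

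As a share of width, the peak lay below the middle of 305 wide regions (88.9%), against 79.5% of the other regions at 18. It lay in the lowest 20% of 190 wide regions (55.4%) and of 28.4% of the others, and in the highest 20% of 3 wide regions (0.875%) and of 1.01% of the others. Over chromosomes the share below the middle was 90.3% ± 6.26 and 79.8% ± 2.01 (SD, n = 12). The mean distance of the peak from the middle was 29.9% ± 2.13 of the width for wide regions and 21.9% ± 0.910 for the others. Width, which chose the members, is the denominator of these shares. They are among the 8 quantities over which p was adjusted, but their own p is not given and nothing is read from it. How the list places a peak whose highest value is held over several bases is not stated.

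The 15 wide regions with peak values under 18 were not confined to the limit of 1000 bp. They measured 1013 to 1684 bp, with a median of 1143 bp. The one at 16 was 1143 bp wide, from 1664842 to 1665984 on chromosome 3. The widest was at 17 on chromosome 3, from 36133764 to 36135447, and lay 885 bp above another wide region. A neighbour within 1000 bp was present for 13 of the 15, and their median peak position was 413 bp. Leaving these 15 out changed the difference in near neighbours from other regions at 18 to 22.8 percentage points (exact sign-flip, adjusted p = 0.0013).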

How the data were processed

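ATAC-seq libraries were made from rice leaf nuclei and read from both ends on a HiSeq, per the labels' protocols. Reads were aligned with Bowtie2 2.2.3, per the submitters' processing notes; the sources used here do not give the genome build, filters, region caller or pooling of the 18 libraries. The deposited list gives starts and ends in bp (1-based) and an attribute text with max and maxpos. It holds 0 columns of per-sample values.

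The members and all comparisons were chosen with earlier results of these data known. The planned test between treatments was not run, as the deposited list holds no read counts. Gaps were counted between region edges. The 8 quantities were compared per chromosome, wide minus other regions of peak value 18, by exact permutation of the signs of the 12 chromosomes' differences (two-sided) and Benjamini-Hochberg adjustment (Python 3.11.15, NumPy 2.4.6, pandas 2.3.3, matplotlib 3.10.9). The code was tested on simulated lists with planted near neighbours, and on lists without them for the share of peaks below the middle. The near-neighbour share was not checked on lists without planted neighbours. Regions named are the widest 20, the 5 on each side of the limit, the 3 most isolated and most enclosed members, the chromosomes with the highest and lowest share, and the 3 largest groups of wide regions within 10 kb of each other. The closest pairs, the stretches without a wide region, the bins, the members below 18 and the groups of neighbouring regions (2 of those with most open bp) were added after their values were seen.

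The gene table at hand belongs to the assembly ASM3414082v1. Peak positions lay within 200 bp of a gene end there in 8.26% of regions on average over chromosomes. After 20 shifts of the coordinates this share ran between 7.01% and 9.11% (means over chromosomes of the lowest and highest). The unshifted share was above every shifted one on 0 of 12 chromosomes. Shared coordinates were therefore not shown, and the planned gene comparisons and lists were not used.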

Additional observations from a re-analysis of the deposited data

Results flagged for a closer look

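Outside the 12 chromosomes, ChrC held 10 regions wider than 1000 bp among 41 (24.4%), the widest of 3304 bp, and ChrM held 21 among 73 (28.8%), the widest of 30657 bp. ChrSy and ChrUn held 0 among 26 and 0 among 7. These sequences were not used in the comparisons, and the pooled list does not separate the control libraries from the others.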

How the results depend on the processing

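No paired analysis was possible because the list has no value per library. The alternatives were another comparison set, limits of 800 and 1500 bp, members at 18 only, joining regions less than 150 bp apart, other gaps, windows and ends, and leaving out each chromosome. The number of wide regions was 766 over 800 bp, 68 over 1500 bp and 530 after joining. The difference in near neighbours lay between 19.4 and 37.8 percentage points and the log2 ratio of nearest distances between -2.13 and -1.28. The difference in regions within 50 kb was positive. Apart from the count without the nearest 5 kb, each passed under every alternative run, of which joining also changes which regions are wide. Without the nearest 5 kb, the difference within 50 kb had p = 0.027 before adjustment and 0.044 after it (exact sign-flip). The latter is under 0.05 only because the adjustment included quantities with width as their denominator, so no pass is read from it. The difference in the share of peaks below the middle, from which nothing is read, was 6.95 percentage points at 1500 bp, against 10.6 at 1000 bp. The width of the nearest neighbour passed at 800 bp (18.7 bp) and after joining (42.9 bp), which also changes the neighbours' own widths. The difference in the outer 25% was -6.51 percentage points against regions of 500 to 1000 bp (exact sign-flip, adjusted p = 0.058). The share in the outer 25% changed sign after joining (0.478 percentage points), and the neighbour's peak value against all other regions (0.0701), against those of 500 to 1000 bp (0.00443) and at 800 bp (0.0538), none of which passed. Causes were not tested. Leaving out 1 chromosome moved none of the 6 quantities that do not have width as a denominator across the threshold, but the sign of the neighbour's peak value turned without chromosome 1, 2, 5 or 11. Ranges were 22.5 to 25.4 percentage points for near neighbours, -1.80 to -1.61 for the log2 ratio, 1.84 to 2.19 regions within 50 kb, -4.27 to -1.005 percentage points at the ends, 9.63 to 11.7 for peaks below the middle, 7.67 to 8.33% of width from the middle, 5.41 to 21.7 bp for the neighbour's width and -0.0918 to 0.116 for its peak value.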
